A study of Mus musculus with 6 samples.

Results

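The output arm of the circadian clock was examined in hearts that had lost MRPS5, a small subunit protein of mitochondrial ribosomes. It was represented by 8 transcription factor genes of the 54532 genes in the expression table: Dbp, Tef, Hlf, Nfil3, Bhlhe40, Bhlhe41, Ciart and Rora. They were chosen by name for their role, with earlier results of these data known. RNA of heart tissue was sequenced from 6 mice. The methods describe the tissue as ventricular. The Ctrl group held 3 Mrps5 fl/fl mice, and the cKO group held 3 Mrps5 fl/fl; MCM mice. MCM is the αMHC-MerCreMer transgene, which makes Cre active after tamoxifen in cardiomyocytes alone, so other cells of the heart keep Mrps5. At 8 weeks of age all 6 mice, Ctrl included, received tamoxifen at 45 mg/kg/day on 5 days, and hearts were taken 12 weeks later. Since Ctrl mice lacked the transgene, loss of Mrps5 and the presence of activated MerCreMer cannot be told apart. The mice were housed in a light and dark cycle. The hour at which each heart was taken is not given in the sources used here, although all 8 genes belong to a system that changes over the day.

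In the mammalian clock, CLOCK and BMAL1 (encoded by Arntl) bind E-boxes in DNA and drive the genes of their own inhibitors, the PER and CRY proteins, together with those of the nuclear receptors REV-ERB. DBP, TEF and HLF are the proline and acidic amino acid-rich basic leucine zipper (PAR-bZIP) factors, which carry the rhythm outward by activating genes with a D-box. NFIL3 binds the same D-boxes as a repressor. BHLHE40 and BHLHE41 act as repressors at E-boxes, CIART represses CLOCK and BMAL1, and RORA activates genes at the ROR element, where REV-ERB represses them.

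Promoter stretches are shown first for the members with an E-box outside annotated exons. RefSeq windows of 300 bases around the gene start (GRCm38.p6) were matched for 7 of the 8 genes, not for Bhlhe40, and were searched on both strands. The E-box was searched as CACGTG, which occurred in 7.15% of all 32851 such windows. It was found 3 times in Ciart, at -116 to -111, -58 to -53 and -44 to -39 from the start, once in Bhlhe41 and once in each of the 2 windows of Tef. Neither of the searched D-box forms, TTATGTAA and the form with C in its middle, occurred in a window of any of the 7 genes, against 1.06% of all windows. The ROR element, searched as TAGGTCA, was found in Nfil3 alone among the 7, on the strand opposite to that of the gene, at -12 to -6, against 2.61% of all windows. No searched motif was in the windows of Dbp, Hlf or Rora, which says only that these letters are not in these windows. The 3 stretches below are 5′ to 3′ on the strand of the gene, with the E-box in capitals. Bases that lie in annotated exons are left out, among them the 23 bases just before the start of Ciart and the 138 before that of Bhlhe41. That of Ciart is chr3:95882252-95882478 on the minus strand, that of Tef is chr15:81811164-81811413 on the plus strand, inside the annotated gene and outside its exons, and that of Bhlhe41 is chr6:145865559-145865670 on the minus strand.
Ciart: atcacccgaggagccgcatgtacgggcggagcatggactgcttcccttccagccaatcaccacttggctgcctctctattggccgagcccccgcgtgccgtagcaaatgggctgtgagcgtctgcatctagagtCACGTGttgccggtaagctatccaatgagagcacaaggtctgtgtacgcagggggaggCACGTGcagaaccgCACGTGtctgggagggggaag
Tef: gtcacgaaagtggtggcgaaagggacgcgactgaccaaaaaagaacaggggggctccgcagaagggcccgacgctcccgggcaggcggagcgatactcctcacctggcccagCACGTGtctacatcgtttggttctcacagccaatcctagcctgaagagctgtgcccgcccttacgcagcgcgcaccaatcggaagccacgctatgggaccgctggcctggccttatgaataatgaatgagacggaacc
Bhlhe41: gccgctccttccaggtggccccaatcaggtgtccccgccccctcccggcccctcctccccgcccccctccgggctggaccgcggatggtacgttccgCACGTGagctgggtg

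The libraries held 15989322 to 24875499 reads assigned to genes. Mrps5 measured 5.20, 6.45 and 6.33 FPKM (fragments per kilobase of gene, scaled to library size) in Ctrl hearts against 1.12, 1.23 and 1.31 FPKM in cKO hearts, which left 20.4%. The library labelled cKO replicate 2 stood apart from the other 5 in genes of the sex chromosomes. Its Xist was at 10.7 FPKM against 0.00329 to 0.127 elsewhere, and its Ddx3y, Kdm5d, Uty and Eif2s3y were at 0 against 0.785 to 17.7 elsewhere, while the methods describe male mice. Results on the members are therefore also given without it. No pair of hearts in a group agreed within counting noise. The mean chi-square per gene, which grows with the disagreement of a pair, was taken over all genes with enough reads. It was 43.1 and 40.8 for the pairs with cKO replicate 2, and 13.2 to 16.7 for the other pairs within a group.

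The PAR-bZIP activators were lower in cKO hearts, whereas the repressors Nfil3, Bhlhe40, Bhlhe41 and Ciart did not pass the test. Ciart, at 46.6% of the Ctrl mean, missed the threshold narrowly (limma adjusted p = 0.0526). Of the 8 members, all of which had a mean of at least 0.5 FPKM and were tested, 4 fell (Dbp, Tef, Hlf and Rora) and 0 rose at a limma adjusted p under 0.05. Over all 12944 genes tested, 33.3% were called, 17.0% as lower and 16.3% as higher. At an unadjusted p under 0.05, 1 member was higher (Bhlhe41), and with voom on reads recovered from the FPKM values 5 were lower and 0 higher. Without cKO replicate 2 the limma counts were again 4 lower and 0 higher. The 2 groups did not overlap for 5 members, Ciart being the one added, and for 51.2% of all genes tested. The median log2 fold change was -0.62 over the members and -0.02 over all genes tested. Fold changes are on the scale of log2(FPKM + 1), cKO minus Ctrl, on which changes of weakly expressed genes appear too small.

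**Figure D1:**
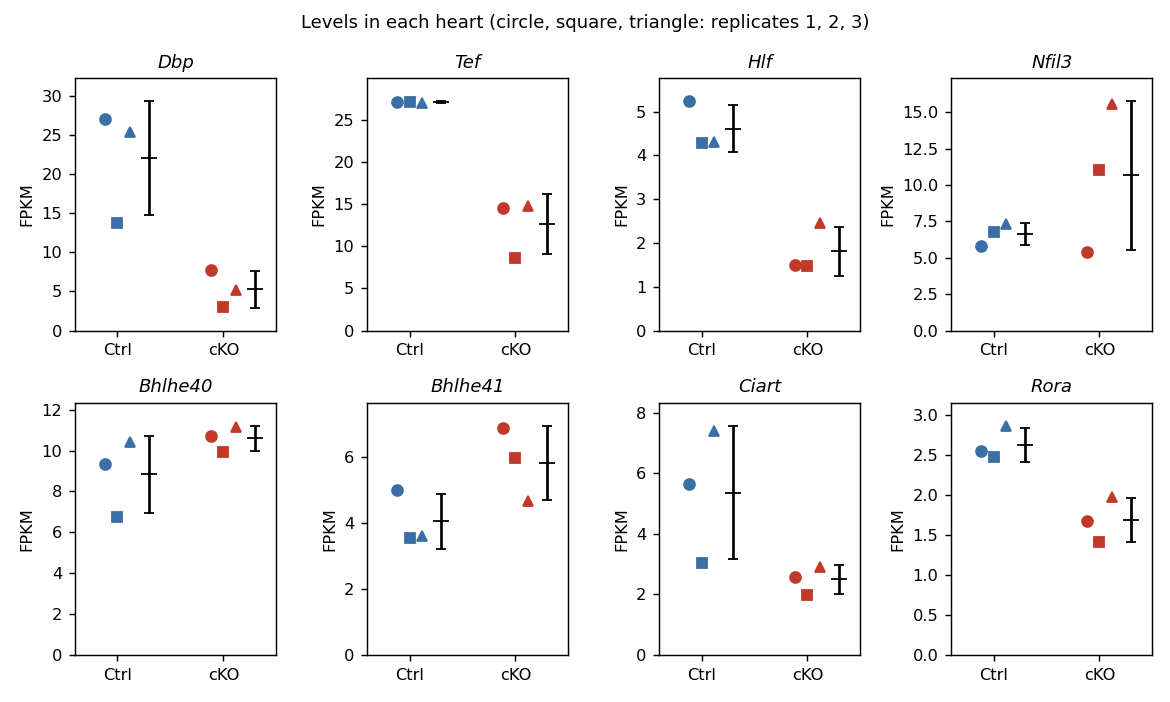
Level of each of the 8 clock output genes in FPKM (y axis, from 0) in the 3 Ctrl (blue) and 3 cKO (red) hearts, with the symbol giving the replicate and the black bar the mean ± SD. Dbp, Tef, Hlf, Ciart and Rora have every cKO heart below every Ctrl heart, while in Nfil3 cKO replicate 1 (5.39 FPKM) lies below all Ctrl hearts and the other two cKO hearts lie above them.

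Dbp, the PAR-bZIP factor with a strong daily rhythm in many tissues, showed the largest change of the 8. The gene (ENSMUSG00000059824, chr7:45705088-45710203 in GRCm38, plus strand, 4 exons) measured 27.0, 13.7 and 25.4 FPKM in the Ctrl hearts (replicates 1, 2 and 3, as throughout) against 7.70, 2.96 and 5.19 FPKM in the cKO hearts. The highest cKO heart was thus well under the lowest Ctrl heart, although the Ctrl hearts themselves were spread, with replicate 2 low. The means were 22.1 ± 7.26 and 5.28 ± 2.37 FPKM (SD, n = 3 each), so that 24.0% of the Ctrl mean was left. Its log2 fold change was -1.89 (SE 0.34, 95% interval -2.70 to -1.08, limma adjusted p = 0.00732). Of the exonic bases of Dbp, 539 (18.0%) are shared with Sphk2, a sphingosine kinase gene on the opposite strand. Whether counting used the strand is not stated, so how reads in the shared stretch were assigned is not known. Sphk2 did not pass the test and had a positive fold change (0.32, adjusted p = 0.157).

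Tef differed from Dbp in how evenly it was expressed among Ctrl hearts. The gene (ENSMUSG00000022389, chr15:81802421-81826863, plus strand, 4 exons), whose E-box is shown above, measured 27.1, 27.2 and 27.0 FPKM in Ctrl hearts against 14.6, 8.57 and 14.8 FPKM in cKO hearts. The Ctrl values were nearly the same, and cKO replicate 2 was the lowest. The means were 27.1 ± 0.0904 and 12.6 ± 3.52 FPKM, which left 46.6%, with a log2 fold change of -1.08 (SE 0.19, limma adjusted p = 0.00668). Hlf (ENSMUSG00000003949, chr11:90336536-90390895, minus strand, 4 exons), the least abundant of the activators, measured 5.24, 4.29 and 4.32 FPKM in Ctrl hearts against 1.49, 1.47 and 2.46 FPKM in cKO hearts. Again the groups were apart, here with cKO replicate 3 the highest cKO heart. Of the Ctrl mean of 4.61 ± 0.539 FPKM, 39.2% was left (1.81 ± 0.567 FPKM), with a log2 fold change of -1.01 (SE 0.15, limma adjusted p = 0.00370). Summed over the 3 activators, the level was 59.4, 45.2 and 56.8 FPKM in Ctrl hearts against 23.8, 13.0 and 22.4 FPKM in cKO hearts, which left 36.7%. Without cKO replicate 2 the log2 fold changes of Dbp, Tef and Hlf were -1.59, -0.84 and -0.93, and their adjusted p-values 0.0135, 0.00174 and 0.00957.

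Nfil3, the repressor at D-boxes, varied more among the cKO hearts than any activator did in FPKM. The gene (ENSMUSG00000056749, chr13:52967209-52981073, minus strand, 2 exons) measured 5.82, 6.74 and 7.35 FPKM in Ctrl hearts against 5.39, 11.0 and 15.6 FPKM in cKO hearts. One cKO heart was below all Ctrl hearts and the others above them, so the groups overlapped. The means were 6.64 ± 0.765 and 10.6 ± 5.09 FPKM, and the log2 fold change of 0.51 (SE 0.32, 95% interval -0.25 to 1.26, limma adjusted p = 0.258) leaves room for no change and for a rise larger than 2-fold. Without cKO replicate 1 it was 0.89 with an adjusted p of 0.0150, and without cKO replicate 3 it was 0.20 with an adjusted p of 0.604, so that both size and call depended on single hearts. The fit without cKO replicate 2 gave 0.44 with an adjusted p of 0.41.

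Activators and repressor were set side by side within each heart, since their products compete for the same sites. The ratio of Dbp to Nfil3, in FPKM per FPKM, was 4.64, 2.04 and 3.46 in Ctrl and 1.43, 0.269 and 0.334 in cKO. Dbp exceeded Nfil3 in every Ctrl heart and in cKO replicate 1, and was the lower of the pair in cKO replicates 2 and 3. The ratio of the 3 activators together to Nfil3 was 10.2, 6.70 and 7.73 in Ctrl and 4.41, 1.18 and 1.44 in cKO. These ratios describe the transcripts in the tissue and no test was run on them. On the log2(FPKM + 1) scale the difference between Dbp and Nfil3 was 1.54 ± 0.565 in Ctrl and -0.858 ± 1.13 in cKO (SD, n = 3 each). The mean of the 3 activators minus the mean of Nfil3, Bhlhe40, Bhlhe41 and Rora was 1.32 ± 0.113 in Ctrl and -0.194 ± 0.373 in cKO, a difference of -1.52. This score leaves out Ciart, which had a negative fold change, and of its subtracted factors only NFIL3 acts at D-boxes. Without cKO replicate 2 the difference between the groups was -1.32 for this score and -2.03 for Dbp against Nfil3 (-2.40 with all hearts).

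**Figure D2:**
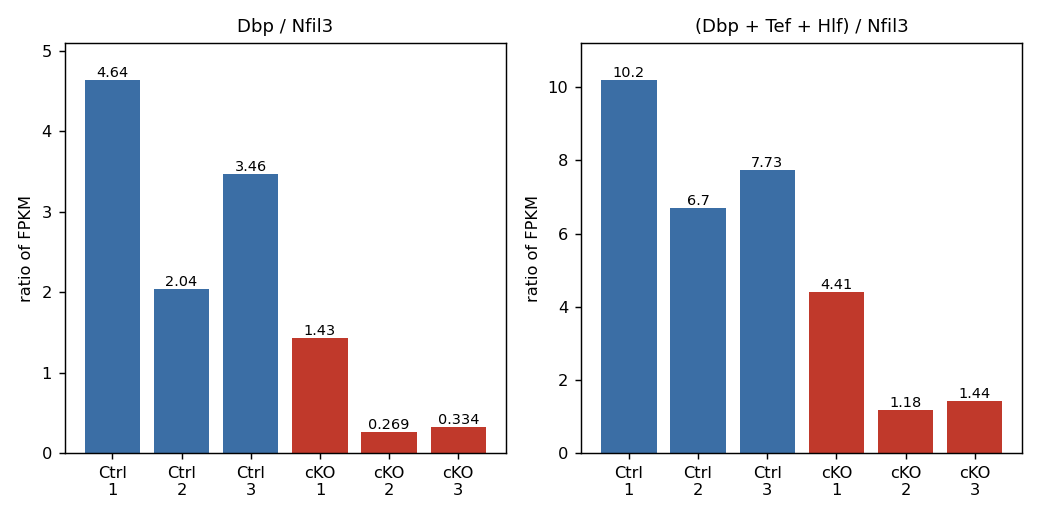
Ratio of FPKM values in each heart (y axis, from 0), for Dbp over Nfil3 on the left and for the sum of Dbp, Tef and Hlf over Nfil3 on the right, 1 bar per heart, Ctrl in blue and cKO in red. The 3 Ctrl bars stand at 2.04 to 4.64 and 6.70 to 10.2, and the 3 cKO bars at 0.269 to 1.43 and 1.18 to 4.41.

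Neither BHLHE factor gene passed the test, and both had positive fold changes. Bhlhe40 (ENSMUSG00000030103, chr6:108660629-108666925, plus strand, 5 exons) measured 9.34, 6.76 and 10.4 FPKM in Ctrl hearts against 10.7, 9.94 and 11.1 FPKM in cKO hearts. The groups overlapped and the cKO hearts were close together. Its log2 fold change was 0.26 (SE 0.14, 95% interval -0.085 to 0.60, limma adjusted p = 0.212). It was 0.09 without Ctrl replicate 2, and 0.30 without cKO replicate 2 (adjusted p = 0.216). Bhlhe41 (ENSMUSG00000030256, chr6:145858243-145865558, minus strand, 5 exons), with 1 E-box in the stretch shown, measured 5.02, 3.55 and 3.60 FPKM in Ctrl hearts against 6.89, 5.97 and 4.66 FPKM in cKO hearts. Ctrl replicate 1 lay above the lowest cKO heart. Of the exonic bases of Bhlhe41, 1280 (19.0%) are shared with Gm43909 on the opposite strand, which had a mean of 0.113 FPKM. How reads in that stretch were assigned is not known. The log2 fold change of Bhlhe41, 0.44 (SE 0.16, 95% interval 0.060 to 0.81), missed the threshold after adjustment (limma adjusted p = 0.0745). It passed without Ctrl replicate 1 (0.57, adjusted p = 0.0433) or without cKO replicate 3 (0.56, adjusted p = 0.0400). Leaving out any other heart gave adjusted p-values from 0.141 (without cKO replicate 2, log2 fold change 0.42) to 0.198 (without Ctrl replicate 2).

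Ciart, with 3 E-boxes in its promoter, measured 5.66, 3.02 and 7.40 FPKM in Ctrl hearts against 2.59, 1.99 and 2.92 FPKM in cKO hearts (ENSMUSG00000038550, chr3:95878503-95882251, minus strand, 5 exons). Every cKO heart was below every Ctrl heart, but Ctrl replicate 2 came within a small distance of the cKO values. The means were 5.36 ± 2.21 and 2.50 ± 0.471 FPKM, 46.6% of Ctrl, and the log2 fold change was -0.81 (SE 0.26, 95% interval -1.43 to -0.19, limma adjusted p = 0.0526). Without Ctrl replicate 2 it was -1.11 with an adjusted p of 0.0119, and voom on recovered reads gave -1.04 with 0.0492. Leaving out any other heart gave no call, with -0.57 and an adjusted p of 0.130 without Ctrl replicate 3. Ctrl replicate 2 was also the lowest Ctrl heart for the members Dbp, Hlf, Bhlhe40, Bhlhe41 and Rora, and not for Tef or Nfil3. It was the lowest as well for Nr1d1, a REV-ERB gene (18.6, 7.38 and 20.9 FPKM in Ctrl).

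Rora, the activator at ROR elements, had the lowest level and a smaller change. The gene (ENSMUSG00000032238, chr9:68653786-69388246, plus strand, 11 exons) measured 2.55, 2.47 and 2.87 FPKM in Ctrl hearts against 1.67, 1.42 and 1.97 FPKM in cKO hearts. The groups were apart, with 64.2% of the Ctrl mean left, and the log2 fold change was -0.44 (SE 0.099, 95% interval -0.67 to -0.20, limma adjusted p = 0.0162). Without Ctrl replicate 3 it was -0.39 and missed the threshold (adjusted p = 0.0576). Without cKO replicate 2, which was the lowest heart for Dbp, Tef, Hlf, Ciart and Rora, the change of Rora was -0.36 (adjusted p = 0.0331) and that of Ciart -0.70 (adjusted p = 0.122).

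The order of the members by FPKM, which is a level per length, differed between the groups. In Ctrl hearts Tef stood first and Dbp next, and they did not differ beyond the spread of Dbp. Bhlhe40, Nfil3, Ciart, Hlf and Bhlhe41 followed, each overlapping its neighbour, and Rora was last. In cKO hearts the order of the means was Tef, Nfil3, Bhlhe40, Bhlhe41, Dbp, Ciart, Hlf and Rora. The ranges of the first 3 overlapped, as did those of Bhlhe41 and Dbp, and those of neighbours among Ciart, Hlf and Rora. Dbp, ranked 2 in each Ctrl heart, ranked 3, 5 and 4 in the cKO hearts. Nfil3, ranked 4, 4 and 5 in Ctrl, ranked 5 in cKO replicate 1 and 1 in cKO replicates 2 and 3.

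The other genes of the clock were taken from lists of 28 genes, of which 23 were tested and 5 were under the filter on low values. Of these 23 genes, 9 fell and 3 rose, where 17.0% of all genes tested were called lower and 16.3% higher. The median log2 fold change of the 23 was -0.28. Without cKO replicate 2, 8 were called lower and 3 higher, and without Ctrl replicate 3, 5 were called lower and 3 higher. Without Ctrl replicate 1, 6 were called lower and 3 higher, and with no filter on low values 5 and 3. Among the core repressors 3 of 5 fell. Per3 measured 2.64, 2.26 and 2.69 FPKM in Ctrl hearts against 0.836, 0.678 and 1.04 FPKM in cKO hearts (log2 fold change -0.93, limma adjusted p = 0.00156). Its cKO hearts held 33.6% of the Ctrl mean, and the groups were far apart. Cry2 (-0.74, adjusted p = 0.00348) and Per2 (-0.57, adjusted p = 0.0209) fell as well. Per1 (-0.67, adjusted p = 0.0975) and Cry1 (0.13, adjusted p = 0.712) did not pass the test.

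Of the REV-ERB genes, Nr1d2 fell. Nr1d2, which encodes a repressor at ROR elements, measured 23.8, 19.9 and 28.2 FPKM in Ctrl hearts against 11.6, 5.51 and 12.8 FPKM in cKO hearts (-1.24, adjusted p = 0.0171 by limma). Like the PAR-bZIP genes, it was lowest in cKO replicate 2. Nr1d1 (-0.59, adjusted p = 0.277) was not called. Of the core activators, Clock rose, from 2.33, 2.67 and 2.88 FPKM in Ctrl to 4.56, 4.13 and 4.15 FPKM in cKO (0.54, adjusted p = 0.00446). Arntl, whose product is the partner of CLOCK, measured 0.314, 0.524 and 0.440 FPKM in Ctrl hearts against 0.338, 0.991 and 0.597 FPKM in cKO hearts, close to the limit of the filter (0.19, adjusted p = 0.385).

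**Figure D3:**
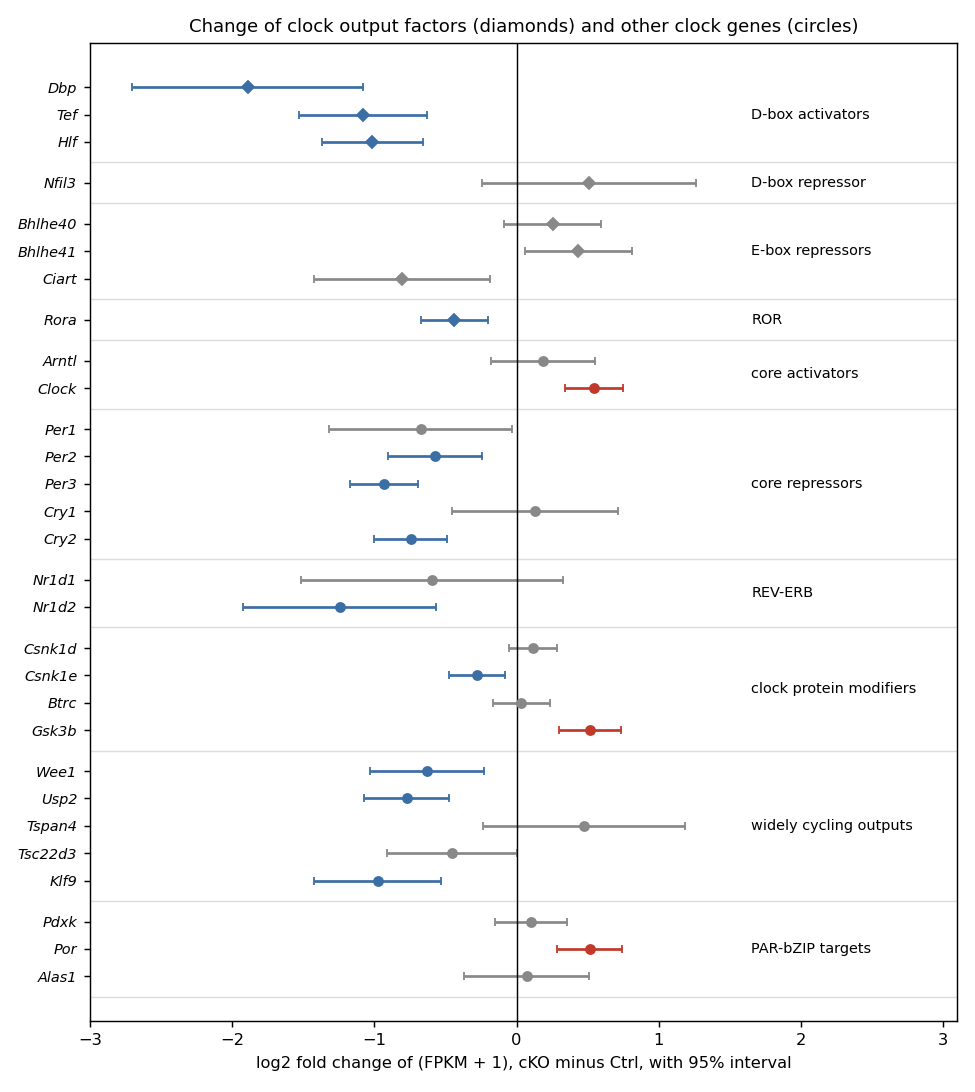
Log2 fold change of FPKM + 1, cKO minus Ctrl (x axis), with its 95% interval, for the 8 clock output genes (diamonds) and 21 tested genes of the other clock lists (circles), grouped by role. Blue marks genes called lower, red those called higher and grey those not called. Dbp lies farthest to the left at -1.89, Clock farthest to the right among the called genes at 0.54.

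Of the widely cycling output genes, 3 of 5 tested fell. They were Klf9, a Krüppel-like transcription factor (-0.98, limma adjusted p = 0.00935), Usp2, a ubiquitin-specific protease (-0.77, adjusted p = 0.00533), and Wee1, a cell cycle kinase (-0.63, adjusted p = 0.0291). Tspan4 (0.47, adjusted p = 0.265) and Tsc22d3 (-0.45, adjusted p = 0.116) were not called. Among the modifiers of clock proteins, the casein kinase gene Csnk1e (-0.28, adjusted p = 0.0397) fell, while the kinase gene Gsk3b rose (0.52, adjusted p = 0.00714). Csnk1d (0.12, adjusted p = 0.245) and Btrc (0.03, adjusted p = 0.791) were not called. The textbook targets of the PAR-bZIP factors, known from liver and brain, were not called lower. Of 3 such genes 0 fell and 1 rose, with 0 lower also at an unadjusted limma p under 0.05 and with voom. Por, which encodes cytochrome P450 reductase, measured 18.5, 16.2 and 19.6 FPKM in Ctrl hearts against 28.0, 26.6 and 24.1 FPKM in cKO hearts (0.51, adjusted p = 0.00850). Pdxk, for pyridoxal kinase (0.10, 95% interval -0.15 to 0.36), and Alas1, for the first enzyme of haem synthesis (0.07, 95% interval -0.37 to 0.51), were not called.

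**Figure D4:**
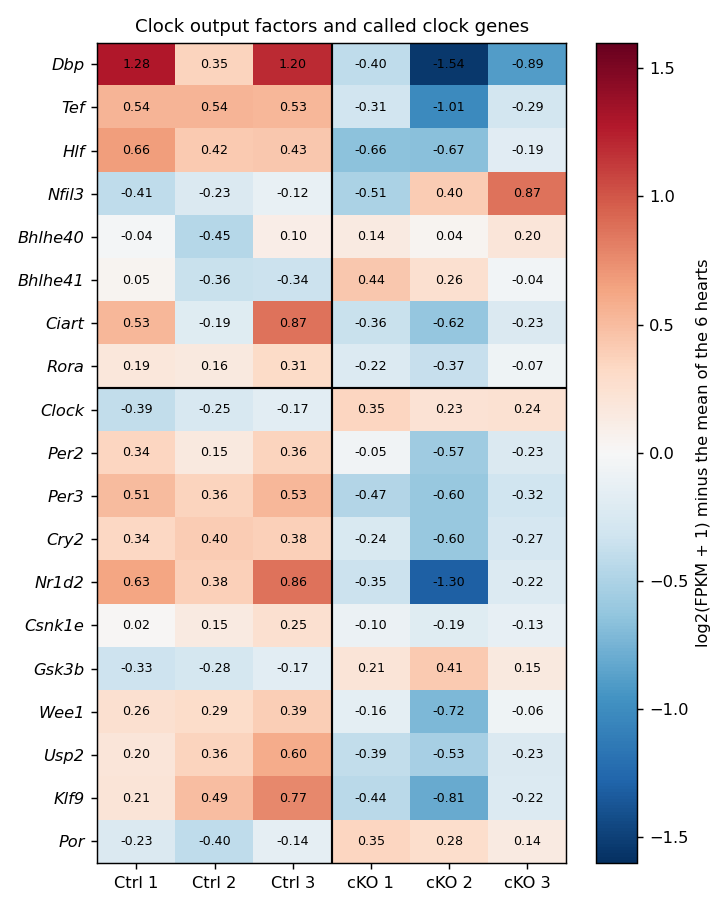
Log2(FPKM + 1) of each gene (rows) in each heart (columns), minus the mean of the 6 hearts, with red above and blue below that mean and the value in each cell. The 8 clock output genes stand above the line, 11 other clock genes that were called below it. The darkest blue cells are Dbp at -1.54 and Nr1d2 at -1.30, both in cKO replicate 2.

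Genes whose values over the 6 hearts were most like those of a called member were sought among 10158 genes, by the root mean square difference of their centred log2 values. For Tef these were Fmo2 (0.0874), Trabd2b (0.0905) and Galnt15 (0.0906). For Hlf they were Wnk4 (0.0546), Colec11 (0.0629) and Gm10762 (0.0918), and for Rora Pias1 (0.0312), Bclaf1 (0.0323) and Mpped2 (0.0359). For Dbp the nearest was Lrg1 at 0.305. Values were centred but not scaled, so this difference tends to be larger for genes with larger changes. It is therefore not compared between members. Lrg1 measured 56.0, 58.0 and 76.1 FPKM in Ctrl hearts against 27.8, 10.1 and 20.3 FPKM in cKO hearts, and like Dbp was lowest in cKO replicate 2.

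Summed markers of some cell types in the tissue were apart between the groups, and those of others overlapped. The summed level of 8 cardiomyocyte markers was 10080 to 11590 FPKM in Ctrl and 5681 to 8086 FPKM in cKO, with 4 of the 8 called lower. That of 6 endothelial markers was 120 to 140 FPKM in Ctrl and 78.2 to 93.2 FPKM in cKO, with 4 of the 6 called lower. Over all genes tested, 17.0% were called lower and 16.3% higher. Fewer cells of a type and less RNA per cell cannot be told apart in such samples. Smooth muscle and pericyte markers summed to 146 to 166 FPKM in Ctrl and 94.9 to 122 FPKM in cKO, with 1 called lower and 1 higher of 5 tested. Of 7 fibroblast markers, Col3a1 (328% of Ctrl, limma adjusted p = 0.00328) and Col1a1 (184%, adjusted p = 0.0208) were called higher and Dcn lower (66.7%, adjusted p = 0.0185), and of the tested macrophage and leukocyte markers Csf1r was called lower (61.8%, adjusted p = 0.0196). The sums of fibroblast (159 to 186 and 157 to 187 FPKM), macrophage and leukocyte (144 to 206 and 129 to 182 FPKM) and erythroid markers (880 to 2056 and 585 to 1588 FPKM) overlapped between the groups. Within the cKO group, the heart with the lowest Dbp, Tef and Rora (replicate 2) had the highest cardiomyocyte sum. Of that sum of 8086 FPKM, Myh6 made up 3348 FPKM, and the markers did not all share its order. Myh6, Tnnt2, Actn2, Mybpc3 and Ttn were highest in replicate 2, and Tnni3, Ryr2 and Atp2a2 in replicate 3. Ryr2 was lowest in replicate 2 (33.2 FPKM). Atrial markers summed to 2054, 290 and 128 FPKM in Ctrl replicates 1, 2 and 3 and to 575 to 1675 FPKM in cKO. In the same 3 Ctrl hearts Dbp stood at 27.0, 13.7 and 25.4 FPKM. Nppa made up most of the atrial sum in cKO replicate 2 (1127 of 1348 FPKM). The part of these shifts in the values of the clock genes was not tested.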

How the data were processed

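RNA of 3 Ctrl and 3 cKO hearts was analysed from the FPKM values deposited by the authors for 54532 genes, with the deposited gene length as an other value. Per the labels, the authors aligned with HISAT2 2.0.5, counted with featureCounts 1.5.0-p3 and tested with DESeq2 1.16.1. The labels name mm9, but 53499 of 54409 shared genes have the start and end of GENCODE release M21 (GRCm38), and the study's text and the labels differ on the age of the mice. FPKM times length gave whole reads for 100% of values (tolerance 0.01 of a read). The library sizes so implied were 0.913 to 0.980 times the totals in Ctrl and 1.06 times in cKO, so the deposited values carry a scaling between samples. The members had 99 to 5137 reads in a heart, so their largest counting error was 10.0%.

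Genes averaging 0.5 FPKM or more were fitted as log2(FPKM + 1) with limma 3.58.1 in R 4.3.3 (lmFit, eBayes with trend, two-sided, no covariates), with Benjamini-Hochberg adjustment over 12944 genes and a threshold of 0.05. The fit was also run on simulated data with far fewer changed genes than were called here, so no error rate is taken from them. Errors given as ± are SD. The members and lists were chosen with earlier results of these data known. Named genes were all members, the listed clock genes and the 3 most like genes per called member. Some listed genes are not reported here by name, though they remain in the counts. Alternatives were another pseudocount, filter, scaling, eBayes setting, voom, a replicate block and leaving out each heart. A comparison of member proteins was not run here.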

Additional observations from a re-analysis of the deposited data

How the results depend on the processing

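Over 120 comparisons of the 8 members with their fits under 15 alternatives, 111 kept direction and call, 8 gained a call, 1 lost one and 0 changed direction. Dbp, Tef and Hlf were called lower in all 15. The count of members called higher, 0 in the fit reported, was 1 with the replicate block (Bhlhe41, adjusted p = 0.0256) and 0 to 1 when 1 heart was left out. The block also called Ciart (0.0167), and same-numbered hearts did not deviate together in every pair (correlations -0.06, 0.17 and -0.01), so they were not taken as pairs. Called lower were 3 to 5 members without 1 heart. Of the 23 other clock genes, 9 were called lower, 5 without the filter on low values and 5 to 9 without 1 heart, 5 being without Ctrl replicate 3. Over all genes tested, the calls were 2205 lower and 2110 higher, and 1434 to 2006 lower and 1400 to 1993 higher without 1 heart, with the fewest lower calls without Ctrl replicate 2. Scaling to the total without genes of mitochondrial DNA gave 1623 lower and 2647 higher. The cause of these shifts was not tested. The calls of Nfil3, Bhlhe41, Ciart and Rora depended on which hearts were included, with Rora missing the threshold without Ctrl replicate 3.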
